A study of Mus musculus with 6 samples.

Results

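Of the 39179 Ensembl gene identifiers with a deposited expression value, 479 carried a microRNA symbol (Mir and a number, or Mirlet), and 6 of these were above 0 in at least 2 of the 6 pools. These 6 are described here. They are the microRNA loci Mir142, Mir1191, Mir1946b, Mir466i and Mir1198, and Mir17hg, which is not a microRNA but the long host transcript of the miR-17-92 cluster. They were chosen by their FPKM values, so that being above 0 is not a finding. Mir466i and Mir1198 were just inside the limit, with 2 pools above 0 each. Mir467f was just outside it, with 1 pool, and 472 microRNA symbols were listed at 0 in every pool.

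Expression was measured by RNA-Seq in germinal center (GC) B cells and in resting, or naive, B cells of Peyer's patches, which are lymphoid follicles of the intestine wall where B cells meet gut antigens. Both populations came from the ileum of wild-type female C57BL/6 mice aged 12 weeks. GC B cells were sorted as Fas+GL7+ and naive B cells as Fas-GL7- B cells, with 3 biological replicates each, and every replicate was a pool of several mice. RNA was purified with a Qiagen RNeasy Mini kit, and libraries were made from total RNA with the NEB NEXT Ultra RNA-Seq kit. The sources used here do not state whether strand was kept, or how much short RNA was kept.

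MicroRNAs are transcribed as long primary transcripts from which Drosha and Dgcr8 cut a short hairpin in the nucleus. Xpo5 exports the hairpin, Dicer1 trims it to a duplex of about the length of the sequences below, and an Argonaute protein keeps one strand, whose bases 2 to 8, the seed, pair with target messenger RNAs. In B cells, Mir155 is needed for a normal GC response, miR-17-92 favours survival of developing B cells, and Mir142 is made in cells of the blood lineage. Hairpins and mature microRNAs are shorter than the mean fragment length of 180 bases that was set for these libraries.

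The mature products of the 5 microRNA loci and of Mir467f are printed 5′ to 3′ from the RefSeq table for GRCm38.p6. The seed is in capitals, to show that the seeds differ and that some products are built of simple repeats. All 5 loci were in that table.
miR-142a-5p: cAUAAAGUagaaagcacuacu
miR-142a-3p: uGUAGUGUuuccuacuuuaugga
miR-1191a: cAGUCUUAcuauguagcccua
miR-1946b: gCCGGGCAgugguggcacaugcuuuu
miR-466i-3p: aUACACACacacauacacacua
miR-1198-5p: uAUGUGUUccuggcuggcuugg
miR-1198-3p: aAGCUAGCcucuaacucauggc
miR-467f: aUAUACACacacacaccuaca
No 2 of these 8 products shared a seed. The CA repeats of miR-466i-3p and miR-467f are visible at a glance. In the 22 chromosomes of NCBIM37, searched on both strands, the letters of miR-142a-5p and of miR-142a-3p each occurred 1 time. Exact copies numbered 2 for miR-1198-5p, 1 for miR-1198-3p, 5 for miR-1191a, 7 for miR-467f, 11 for miR-1946b and 18 for miR-466i-3p. Among protein-coding transcripts, only those of 1 gene, Ss18l1, held an exact copy, that of miR-466i-3p. Other annotated genes were not searched for copies. Reads that fit several annotated copies are divided by the model that made the values. Levels of the multicopy loci may thus be less certain than that of Mir142, but whether their reads were divided was not tested.

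Mir142 lies on the plus strand at chr11:87756864-87756927 (GRCm38.p6), and its 64-base hairpin is wholly covered on the opposite strand by the 115-base hairpin of Mir142b. In the older vM1 annotation Mir142 is in an intron of the noncoding transcript A430104N18Rik, on the same strand. Both hairpins are printed because Mir142 is the locus with the most reads. In Mir142 the capitals mark both mature strands, and in Mir142b they mark the 64 bases complementary to Mir142.
Mir142: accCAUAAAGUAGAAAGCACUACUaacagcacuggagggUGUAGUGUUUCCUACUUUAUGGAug
Mir142b: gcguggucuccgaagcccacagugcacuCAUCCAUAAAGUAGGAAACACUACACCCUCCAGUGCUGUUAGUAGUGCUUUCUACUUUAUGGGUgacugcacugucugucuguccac
Without strand, reads from these loci cannot be told apart. Mir1191 is at chr7:27205536-27205655 on the plus strand, inside the span of BC024978. Mir466i is at chr13:17747473-17747593 on the plus strand, in an intron of Cdk13, a cyclin-dependent kinase gene on the opposite strand. Mir1198 is at chrX:7807101-7807221 on the plus strand, in an intron of Gripap1 on the same strand. Mir1946b is at chr9:21613444-21613576 on the minus strand, between genes and 2530 bases from Smarca4, which encodes a chromatin remodeling ATPase. Mir467f, at chr11:69635400-69635519 on the minus strand, is in an intron of Fxr2, which is on the opposite strand.

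FPKM was rescaled to transcripts per 1000000 transcripts (TPM), so that each pool had the same total. Mir142 was listed at 312, 114 and 116 TPM in GC pools 1, 2 and 3, and at 1041, 1612 and 439 TPM in naive pools 1, 2 and 3. All naive pools were above all GC pools, and the nearest were naive pool 3 and GC pool 1. It averaged 181 ± 114 TPM for GC and 1031 ± 587 TPM for naive B cells (SD, n = 3 each), so the SD was 63.0% and 56.9% of the mean. On the log2(TPM + 1) scale Mir142 was lower in GC by a fold change of -2.48 (SE 0.58, adjusted p = 0.00895, limma fit across all 12785 genes that reached 1 TPM in 3 or more pools). Mean TPM was 5.70 times higher in naive B cells.

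Mir1191 was listed at 275, 152 and 398 TPM across the naive pools and at 0 in every GC pool. Mir1946b showed the opposite arrangement, with 74.5, 40.9 and 41.5 TPM across the GC pools and 0 in every naive pool. Mir466i was at 129 and 95.7 TPM in naive pools 1 and 2, and at 0 in naive pool 3 and in GC. Mir1198 was at 64.6 and 47.8 TPM in the same naive pools and at 0 in the other 4. Mir467f had its only value, 79.5 TPM, in naive pool 3. Where a locus was listed at 0 in a whole population no fold change is given.

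**Figure D1:**
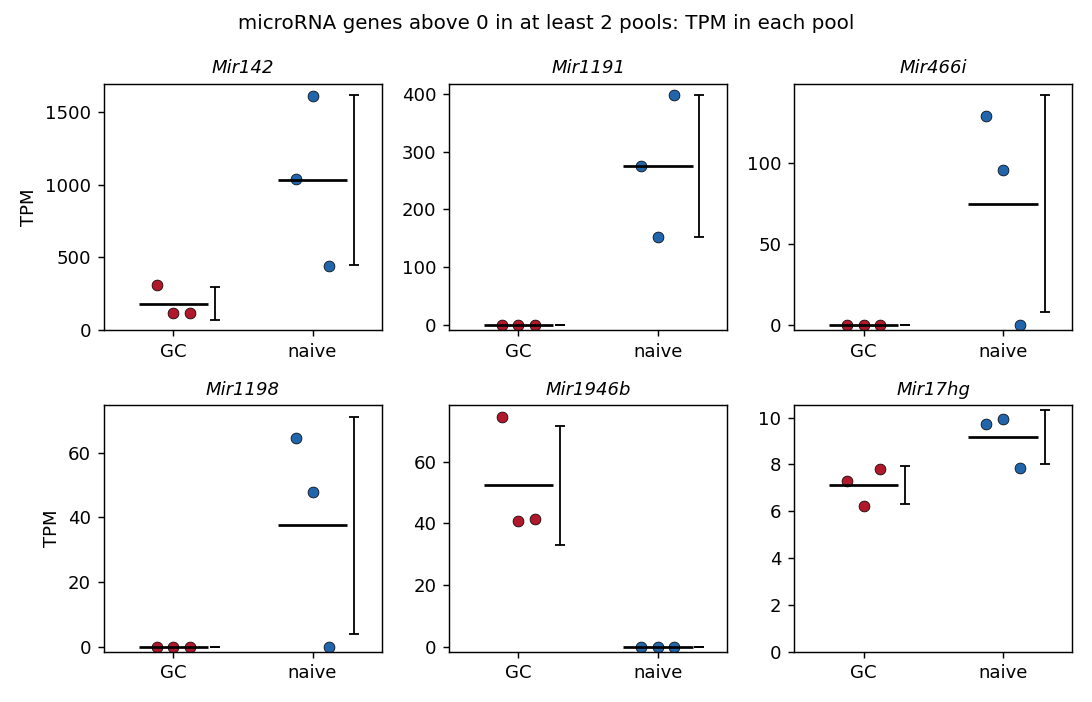
TPM (vertical axis, linear, 1 scale per panel) of the 6 genes in the 3 GC pools (red) and the 3 naive pools (blue); horizontal lines are means and error bars are SD. Mir142, Mir1191, Mir466i and Mir1198 had their highest values in naive pools, Mir1946b was above 0 in GC pools alone, and Mir17hg was the 1 gene whose pools lay close together.

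Added together, the 6 genes made up 394, 161 and 165 TPM across the GC pools and 1519, 1918 and 844 TPM across the naive pools. Mir142 alone was between 52.0% and 84.0% of that sum. The sum therefore followed Mir142, and it is given with no test.

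These levels rested on few reads. FPKM is proportional to reads. Where reads are not divided between genes, values of genes of 1 length are thus multiples of a step that is worth 1 read. The step gives the length over which the quantification let a read start (the effective length). It was 1.21 bases for Mir142, 1.66 bases for loci of 120 bases, 1.77 bases for loci of 121 bases and 3.39 bases for loci of 133 bases. The steps did not hold for all values. Among genes of 120, 121 and 133 bases 81.8%, 75% and 81.1% of values lay within 0.1 of a whole read, but 38.3% at 125 bases. The first 3 of these classes held 11, 8 and 37 values, with those of the loci described here among them. Their steps were fitted to these same values, so the percentages are not an independent check of the read numbers. The reads below are therefore implied, not counted. At the estimated depths of between 9700000 and 16120000 reads per pool, 1 read was worth between 70.2 and 116 TPM for Mir142. For Mir1946b it was worth between 25.1 and 41.4 TPM.

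The values of Mir142 corresponded to 3, 1 and 1 reads in the GC pools and to 11, 23 and 4 reads in the naive pools, within 0.0242 of a whole number. The step of Mir142 was fitted to these same 6 values, over a narrower search than for the other loci. This closeness is therefore not a check of the read numbers. The nearest pools of both populations thus differed by 1 read, 4 in naive pool 3 against 3 in GC pool 1. Mir1191 rested on 4, 3 and 5 reads in the naive pools, and Mir1946b on 2, 1 and 1 reads in the GC pools. Mir466i had 2 reads in each of naive pools 1 and 2, Mir1198 had 1 read in each of them, and Mir467f had 1 read in naive pool 3. Every value above 0 of a microRNA locus other than Mir142 thus stood for 1 to 5 reads.

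**Figure D2:**
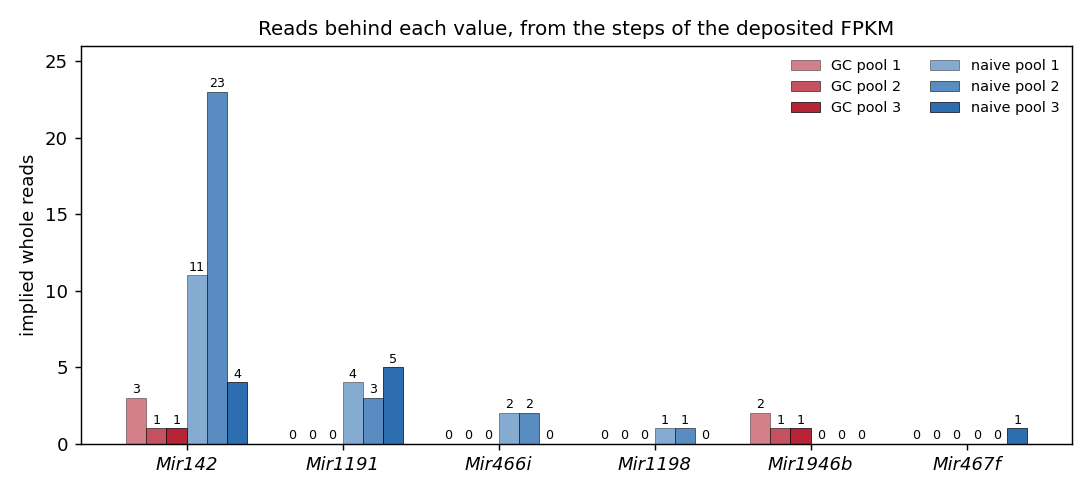
Whole reads implied by the FPKM steps (vertical axis) for the 5 microRNA loci and Mir467f in each of the 3 GC (red) and 3 naive (blue) pools, with the number above each bar. Mir142 in naive pools 1 and 2 is the only case above 5 reads.

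Scaled to reads per 1000000 reads (RPM), Mir142 had 0.274, 0.1 and 0.101 RPM in the GC pools and 0.934, 1.43 and 0.412 in the naive pools, in the order of the pool numbers. Over the 3 pools of each population this was 5 reads, or 0.162 RPM (exact Poisson 95% interval 0.0526 to 0.378), against 38 reads, or 1.01 RPM (0.715 to 1.39). The ratio was 6.24 (exact 95% interval 2.45 to 20.3). The intervals cover counting error alone, and the naive pools also differed among themselves.

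For Mir1191 the 12 naive reads were 0.319 RPM (0.165 to 0.558), and 0 reads in GC left an upper bound of 0.119 RPM. Mir1191 was found through its naive values alone, so the gap between these intervals is not a test of a difference. The 4 GC reads of Mir1946b were 0.130 RPM (0.0353 to 0.332), and 0 naive reads allowed up to 0.0981, so that these intervals overlapped. The intervals of Mir466i (4 reads, 0.0290 to 0.272 RPM) and Mir1198 (2 reads, 0.00644 to 0.192 RPM) also reached below the bound for GC. A floor of 3 reads per pool was worth between 75.1 and 118 TPM for Mir1946b in the naive pools, more than any GC value of this locus. For Mir1191 it was worth between 228 and 253 TPM in the GC pools, more than the value in naive pool 2. The floor was set by choice and does not come from a test of detection. For these loci no difference under it is read as a result.

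In the fit across all genes 4 of the 6 genes had enough pools above 1 TPM to be tested. It called 2 of them higher in naive B cells, Mir142 and Mir1191, where 30.1% of all genes tested were called in that direction and 65.6% in either. It called 1 higher in GC B cells, Mir1946b, where 35.5% of all genes were. Of these calls only that of Mir142 is a test. Mir1191 and Mir1946b could pass the filter only through the population in which all 3 pools were above 0, against a population at 0 in every pool, so that a call was all but fixed by the filter. Their fitted fold changes and p-values are therefore not given, and the reads above, 12 against 0 and 4 against 0, are what was measured. Mir466i and Mir1198, with values in 2 pools, were not tested. Pools of both populations did not overlap for any of the 4 tested genes, as for 70.7% of all genes tested. In 32.8% of them all naive pools were higher, as for Mir142, Mir1191 and Mir17hg, and in 37.8% all GC pools were higher, as for Mir1946b.

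Spread between pools was wide for the microRNA loci and narrow for the host transcript. Between naive pools the highest value was 3.67 times the lowest for Mir142 and 2.61 times for Mir1191, and between GC pools it was 2.74 times for Mir142 and 1.82 times for Mir1946b. The SD was 44.6% of the mean for Mir1191 in naive and 36.8% for Mir1946b in GC B cells. In genes of 100 to 1000 TPM, the range of Mir142 in GC, the median was 3.73% in GC and 5.78% in naive B cells. Single-transcript genes of 113 to 150 bases with at least 10 TPM, the class of the other 4 loci, had medians of 115% in GC and 104% in naive B cells. That class includes genes with reads in only 1 or 2 pools, as Mir466i and Mir1198 had, whose SD was 89.4% of the mean in naive B cells.

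No pool was low for every locus. Naive pool 3, the shallowest library at 9700000 reads, was lowest among naive pools for Mir142, Mir466i and Mir1198 and highest for Mir1191. Naive pool 2, the deepest at 16120000 reads, was highest for Mir142 and lowest for Mir1191 among them. Depth is already divided out of TPM, and its part in the spread was not tested.

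Which microRNA genes had a value went with annotated length. The limit used here, 113 bases, was read from the data, as the shortest length from 100 bases upward at which any single-transcript gene was above 0. Of the 441 microRNA symbols with a length under 113 bases 1 was above 0 in any pool, Mir142, whereas 5 of the 37 with at least 113 bases were. The lengths ran from 54 to 134 bases with a median of 86. Under 113 bases 0 of 285 small nucleolar RNA genes and 0 of 783 small nuclear RNA genes were above 0. The choice of the limit fixed this for genes of any class from 100 bases up to it, among them 584 small nuclear RNA genes of 100 to 109 bases. It did not fix it under 100 bases, where in the bin of 90 to 99 bases 0 of 36 small nucleolar and 0 of 73 small nuclear RNA genes were above 0. From 113 to 150 bases 148 of 896 small nucleolar RNA genes and 13 of 118 small nuclear RNA genes were above 0. Over all single-transcript genes 2 of 2397 under 113 bases were above 0, against 213 of 1379 (15.4%) from 113 to 150 bases. A value of 0 for a short locus thus does not tell absence of its RNA from absence of a usable length.

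**Figure D3:**
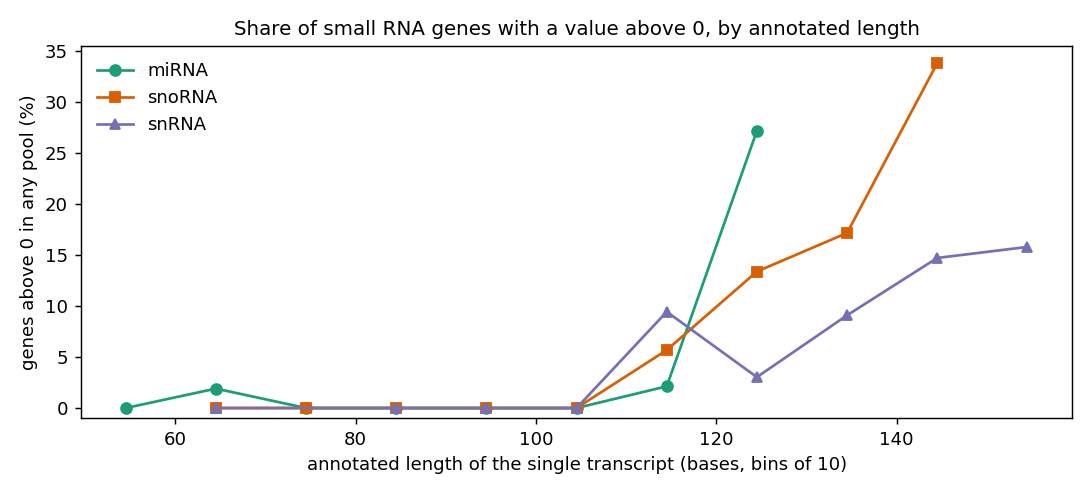
Percentage of genes above 0 in any pool (vertical axis) by annotated length in bins of 10 bases (horizontal axis) for microRNA, small nucleolar RNA (snoRNA) and small nuclear RNA (snRNA) genes with a single transcript, in bins of at least 20 genes. Apart from 2 microRNA-type genes of 60 to 69 bases, 1 of them Mir142, no point lies above 0 until the bin of 110 to 119 bases.

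Mir142 was the exception with a further particularity. Its annotated length is 64 bases, yet its 6 values were multiples of the same step as the 115-base genes SNORA42 and n-R5s183, whose values lay within 0.0035 of whole multiples of it. Of the genes of 113, 114, 116, 117 and 118 bases, none had all its values within 0.05 of a whole multiple. Mir142b in RefSeq is 115 bases long. Whether the values listed for Mir142 were computed on a model of that length was not tested.

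The microRNAs best known in B cells were almost all without a value. Of 46 listed loci 41 were in the table, all of them under 113 bases, and 40 were at 0 in every pool. Among those at 0 were Mir155, Mir150, Mir181a-1, Mir181b-1, Mir146, Mir28, Mir217, Mir21, Mir29a, Mir30a, Mir34a, Mir148a, Mir10a, Mir221, Mir222, the 6 hairpins of miR-17-92 and 7 members of the let-7 family. Only Mir142 was above 0. The 16 microRNAs that mark other cells, such as Mir223 of myeloid cells, Mir192 and Mir200c of epithelia, Mir451 and Mir144 of red cells and Mir122a of liver, were all under 113 bases too and at 0 in every pool. They therefore say nothing of other cells in the sorts. Of 654 genes annotated as microRNAs under other symbols, 26 were above 0 in at least 1 pool and 5 in all 6.

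Mir17hg was the member measured best. It is on the plus strand of chromosome 14. RefSeq gives it as chr14:115044390-115046728 (GRCm38.p6), a span that overlaps Mir19b-1 and Mir92-1 but no other hairpin of the cluster. In the vM1 annotation it is a transcript of 3536 bases whose exons hold the hairpins of Mir17, Mir18, Mir19a, Mir20a, Mir19b-1 and Mir92-1 in full. It was listed at 7.28, 6.23 and 7.82 TPM across the GC pools and at 9.71, 9.95 and 7.86 TPM in the naive pools. On its longest annotated transcript this is about 194, 151 and 187 reads in GC and 284, 393 and 198 reads in naive B cells. The lowest naive pool and the highest GC pool were 0.04 TPM apart, so the groups did not overlap but nearly touched.

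Mir17hg averaged 7.11 ± 0.808 TPM for GC and 9.17 ± 1.14 TPM for naive B cells (SD, n = 3), a ratio of 1.29 in favour of naive B cells. Its SD was 11.4% and 12.4% of the mean, against a median of 19.6% and 18.6% for genes of 1 to 10 TPM. The log2 fold change of -0.33 (SE 0.13, adjusted p = 0.0647, limma) did not pass the threshold of 0.05. It passed without naive replicate 3 (-0.42, adjusted p = 0.0275, limma), with FPKM as deposited (-0.36, adjusted p = 0.027, limma) and after quantile normalization (-0.38, adjusted p = 0.0234, limma).

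The mature microRNAs that this host carries were not measured here, and the 6 hairpins were at 0. A single product of each hairpin is printed below with its seed in capitals, because these products fall into 4 seed groups. The opposite arms that RefSeq lists have other seeds and are not printed.
miR-17-5p: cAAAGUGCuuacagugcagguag
miR-20a-5p: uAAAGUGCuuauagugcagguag
miR-18a-5p: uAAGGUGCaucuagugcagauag
miR-19a-3p: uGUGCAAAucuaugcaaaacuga
miR-19b-3p: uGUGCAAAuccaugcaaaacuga
miR-92a-3p: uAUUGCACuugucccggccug
miR-17-5p and miR-20a-5p share a seed, as do miR-19a-3p and miR-19b-3p.

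Genes around or beside the loci were measured over longer transcripts. A430104N18Rik, whose intron holds Mir142, was at 58.5, 91.6 and 71.3 TPM across the GC pools and at 309, 385 and 320 TPM in the naive pools. It was lower in GC than in naive B cells, with a log2 fold change of -2.20 (SE 0.17, adjusted p = 5.61e-05, limma), and its mean TPM was 4.58 times higher in naive B cells. Its 3 naive pools lay closer together than those of Mir142. The gene was added to the list after its position relative to Mir142 had been looked up. Bzrap1 (Tspoap1), the nearest protein-coding gene, 1267 bases from Mir142, differed in the other direction (log2 fold change 1.205, SE 0.19, adjusted p = 0.00142, limma).

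BC024978, around Mir1191, was lower in GC B cells (log2 fold change -0.57, SE 0.10, adjusted p = 0.0023, limma). Gripap1, which encodes a recycling endosome protein and surrounds Mir1198 on the same strand, was at 115, 129 and 110 TPM across the GC pools and at 275, 298 and 254 TPM in the naive pools (log2 fold change -1.22, SE 0.08, adjusted p = 2.99e-05, limma). Cdk13, around Mir466i, was also lower in GC B cells (log2 fold change -0.58, SE 0.07, adjusted p = 0.000476, limma). Smarca4, beside Mir1946b, was higher in GC B cells (log2 fold change 1.600, SE 0.06, adjusted p = 2.59e-06, limma). Fxr2, around Mir467f, did not pass the threshold (log2 fold change 0.20, SE 0.09, adjusted p = 0.0794, limma). With 65.6% of all genes called in 1 direction or the other, and with loci that have reads in 1 population alone, a shared direction of locus and neighbor is not read as a result. Whether reads at a locus came from the primary microRNA transcript or from an intron of the gene around it was not tested.

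**Figure D4:**
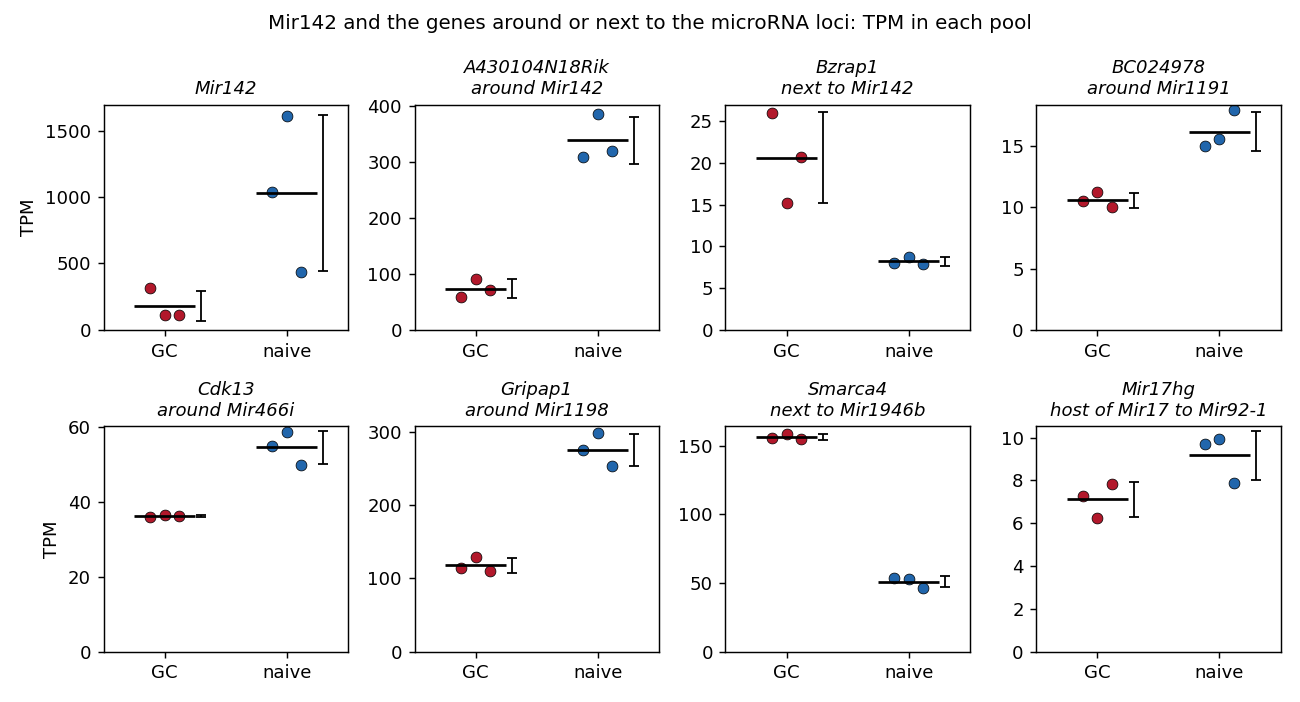
TPM (vertical axis, linear from 0, 1 scale per panel) of Mir142, of Mir17hg and of the genes around or next to the microRNA loci in the 3 GC pools (red) and 3 naive pools (blue); horizontal lines are means and error bars are SD. A430104N18Rik separates the populations with less spread than Mir142, and Smarca4 and Bzrap1 are the 2 genes shown that were higher in GC.

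Host genes of listed B cell microRNAs with no value of their own differed in both directions. Smc4, a condensin subunit gene whose introns hold Mir15b and Mir16-2, was at 205, 202 and 203 TPM across the GC pools and at 62.2, 69.8 and 52.4 TPM in the naive pools. Lpp, host of Mir28, was at 19.9, 21.4 and 20.1 TPM across the GC pools and at 3.71, 4.01 and 3.02 TPM across the naive pools. Both were higher in GC B cells, with log2 fold changes of 1.72 (SE 0.10, adjusted p = 1.56e-05, limma) and 2.23 (SE 0.11, adjusted p = 7.39e-06, limma). Chm, host of Mir361, was lower in GC B cells (log2 fold change -0.50, SE 0.13, adjusted p = 0.013, limma). Vmp1, whose transcripts overlap Mir21, and 2210403K04Rik (Mir22hg) did not pass the threshold (log2 fold changes -0.12 and -0.18, adjusted p = 0.328 and 0.414, limma). Levels of a host gene are not levels of the microRNA it carries.

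The proteins that make and use microRNAs were measured well, with 28 of 30 listed genes tested and called in both directions. In GC B cells 10 were higher (35.7% of those tested, against 35.5% of all genes), and in naive B cells 9 were higher (32.1% against 30.1%). These shares were near the background, so the list as a whole did not stand apart. The median log2 fold change was -0.03, against 0.03 over all genes. Lin28a and Lin28b, which block maturation of let-7, were at most 0.0418 TPM in any pool and were not tested.

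Of the nuclear steps, Drosha was at 29.9, 23.7 and 28.2 TPM across the GC pools and at 11.6, 12.6 and 10.9 TPM in the naive pools. It was higher in GC B cells (log2 fold change 1.15, SE 0.11, adjusted p = 0.000135, limma), as was its partner Dgcr8 (log2 fold change 0.62, SE 0.11, adjusted p = 0.00275, limma). Khsrp, which binds let-7 precursors, and Hnrnpa1, which binds the primary transcript of Mir18, were higher in GC too, with log2 fold changes of 0.91 and 0.58. So were Srrt (0.56), Ncbp1 (0.64) and Ncbp2 (0.45), which link the cap of primary transcripts to their processing. The helicase gene Ddx5 was lower in GC B cells (-0.43), and Ddx17, at -0.19, did not pass the threshold. The adjusted p of these called genes was between 2.22e-05 and 0.00532 (limma).

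Of the later steps, Dicer1 was at 9.04, 10.1 and 10.1 TPM across the GC pools and at 20.6, 21.9 and 18.2 TPM in the naive pools. It was lower in GC B cells (log2 fold change -0.98, SE 0.10, adjusted p = 0.000173, limma), in the direction opposite to Drosha. The exporter Xpo5 was lower as well (log2 fold change -0.76, SE 0.09, adjusted p = 0.000405, limma), while Ran, the GTPase that drives export, was higher (log2 fold change 1.37, SE 0.05, adjusted p = 1.44e-06, limma). Of the partners of Dicer1, Prkra was lower in GC B cells at 0.524, 0.388 and 0.293 TPM against 4.28, 4.48 and 3.27 TPM in the naive pools (log2 fold change -1.83, SE 0.15, adjusted p = 7.97e-05, limma). Tarbp2 was higher by a log2 fold change of 0.21 (adjusted p = 0.0248, limma), a call that was lost after quantile normalization (0.07, adjusted p = 0.299, limma).

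Of the Argonaute genes, which the annotation names Eif2c1 to Eif2c4, the first 3 did not pass the threshold. Eif2c4 was higher in GC B cells (log2 fold change 0.53, SE 0.17, adjusted p = 0.0296, limma), and this call was lost in 5 of 14 alternatives. Among the GW182 genes, which link Argonaute to decay of the target, Tnrc6c (log2 fold change -1.04) and Tnrc6b (-0.53) were lower in GC, and Tnrc6a, at -0.20, did not pass the threshold. Zc3h12a, a nuclease gene known to cut microRNA hairpins, was lower in GC B cells (-1.29, SE 0.11, adjusted p = 7.65e-05, limma). Adar (-0.49) and the uridylyl transferase gene Zcchc6 (-0.37) were lower as well. Its relative Zcchc11 and the exonuclease genes Dis3l2, Xrn1 and Xrn2 did not pass the threshold.

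**Figure D5:**
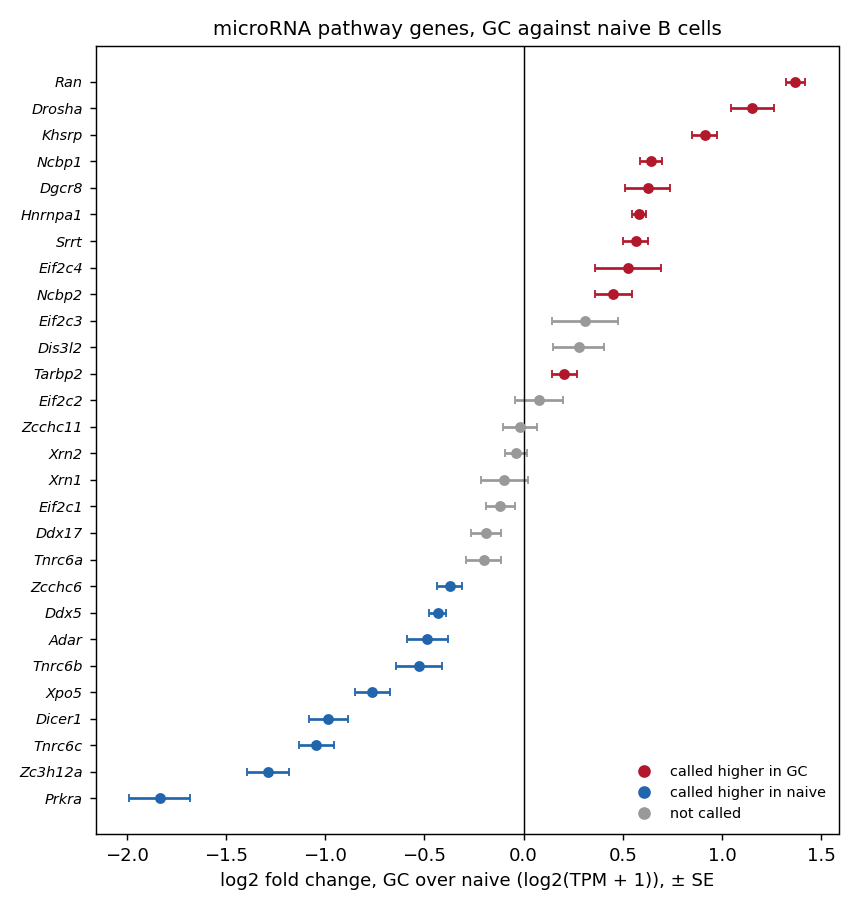
Log2 fold change, GC over naive B cells, on the log2(TPM + 1) scale (horizontal axis) with its SE for the 28 tested genes of the microRNA pathway, colored by whether limma called them higher in GC (red), higher in naive (blue) or not at all (gray). Prkra, Zc3h12a, Tnrc6c and Dicer1 are lowest, and Ran, Drosha and Khsrp are highest.

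The markers of the sorted populations followed the labels in all 6 pools. Fas, 1 of the sort markers, was between 108 and 119 TPM in GC and between 3.03 and 3.59 TPM in naive pools, and the GC transcription factor gene Bcl6 was between 242 and 258 TPM and between 46.9 and 51.6 TPM. The resting B cell marker Fcer2a was between 97.5 and 107 TPM in GC and between 680 and 715 TPM in naive pools. Of other cells, 4 epithelial markers summed to between 17.97 and 31.8 TPM in GC and between 39.6 and 57.5 TPM in naive pools, with Krt8, Epcam and Vil1 higher in naive and Krt18 higher in GC B cells. The 4 myeloid markers summed to between 0.836 and 2.17 TPM in GC and between 3.14 and 6.41 TPM in naive pools, with S100a8 at 0 throughout, and the 5 T cell markers to at most 4.06 TPM in any pool. The epithelial and myeloid sums were thus higher in the naive pools, where Mir142 and Mir1191 had most or all of their reads, and their part in those values was not tested. In bulk samples of this kind fewer cells of a type and less RNA per cell cannot be told apart.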

How the data were processed

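The authors demultiplexed reads with CASAVA 1.8, removed adapters with cutadapt 1.9, and ran RSEM 1.2.25 against mouse transcripts of NCBIm38 v75. They deposited FPKM per gene and pool, with 2 decimals and no counts; the mean fragment length they set exceeds the length of most microRNA genes. Symbols came from gene names of the vM1 annotation (NCBIM37), which named 33398 of 39179 identifiers, and positions and sequences from RefSeq (GRCm38.p6), the build of the files. FPKM was rescaled to TPM. Depth and whole reads came from the steps of low FPKM values in single-transcript genes. Of these values 64.8% to 68.9% lay within 0.1 of a whole read, so the depths are estimates, and counts were not tested.

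GC and naive pools entered a linear model with moderated variance and a mean-variance trend (limma 3.58.1 under R 4.3.3), fitted to log2(TPM + 1) of genes reaching 1 TPM in 3 or more pools, with Benjamini-Hochberg adjustment over all 12785 genes and a threshold of 0.05. A fold change on this scale understates the change of low genes. Python 3.11.15 was used for the rest, with pandas 2.3.3, numpy 2.4.6, matplotlib 3.10.9 and scipy 1.17.1. Scripts were tested on simulated data. Named genes are members called or above 0 in all pools, those at the limit of the rule, listed B cell and other microRNAs, their host or neighboring genes, and the microRNA pathway. Some genes of the marker lists are not reported here. The members and lists were chosen with earlier results of these data known. Alternatives covered the pseudocount, the filter, scaling, the trend, a replicate block and leaving out each pool.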

Additional observations from a re-analysis of the deposited data

How the results depend on the processing

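Mir142 kept its direction and its call in all 15 alternatives (log2 fold change between -3.004 and -2.07, adjusted p between 0.00445 and 0.0289, limma). Mir1191 and Mir1946b were tested only in the 12 alternatives that kept all 3 pools of the population with reads. Their calls there say nothing of stability, and their fitted fold changes, which moved with the pseudocount, are not given. Leaving out any pool of the population with reads left 2 pools above 1 TPM, so that the filter removed the locus. The number of microRNA genes called higher in GC B cells was therefore 1 in the full comparison and ranged from 0 to 1, being 0 without GC replicate 1, 2 or 3. The number called higher in naive B cells was 2 and ranged from 1 to 3 over all alternatives. It was 3 with FPKM as deposited and after quantile normalization, where Mir17hg was called too. Over the comparisons without 1 pool it ranged from 1 to 2. It was 1 without naive replicate 1 or 2, and without naive replicate 3 the calls were Mir142 and Mir17hg. Mir17hg passed the threshold in 3 of 15 alternatives: FPKM as deposited (-0.36), quantile normalization (-0.38) and without naive replicate 3 (-0.42); without 1 pool in turn it ranged from -0.42 to -0.25, and over all alternatives from -0.42 to -0.16. With values above 0 in at least 1 pool the rule found 7 genes, and with at least 3 pools it found 4. Mean summed TPM without 1 pool was between 163 and 280 in GC and between 1182 and 1719 in naive B cells. Without a filter Mir466i and Mir1198 entered the fit and were not called. Both were at 0 in every GC pool and were found through their naive values alone, so their fitted values are not given.

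Pathway calls ranged from 8 to 11 genes higher in GC and from 8 to 13 higher in naive B cells. Tarbp2 also lost its call without GC replicate 1 and without naive replicate 1 or 3, and Ddx17, Tnrc6a, Eif2c1, Dis3l2 and Xrn2 gained one in 1 to 3 alternatives. Of 734 alternatives in all, 0 changed the direction of a called value. Same-numbered pools did not deviate together (correlations 0.083, 0.0225 and 0.0456 for numbers 1, 2 and 3), and nothing states that they share mice. With the number as a replicate block 7960 genes were called against 8392. Of the members, pathway genes and host or neighboring genes, Eif2c4 alone lost its call (adjusted p = 0.0715, limma). The cell type markers were not followed through the alternatives. Whether pools came from separate sorts is not stated, so p-values measure the spread between these pools.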
